A study of Mus musculus with 3 samples.

Results

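F1 is a cluster of 562 macrophages among 4374 cells sequenced from wounded mouse thigh muscle, and it is the cluster in which 8 marker genes, of monocytes and of the interferon response, were at their highest. Its members are the cells that the authors' deposited cell table names F1, 1 of 9 clusters, matched by barcode to the deposited count table. Of the 562 cells, 455 came from wounds given polycaprolactone (PCL, a synthetic polyester), 64 from wounds given saline and 43 from wounds given urinary bladder matrix (UBM, a decellularised extracellular matrix from bladder). PCL cells were 81.0% of F1 and 40.1% of all cells.

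The study removed a volume of the quadriceps, filled the defect with 1 of these 3 treatments, and sorted macrophages 1 week later for droplet sequencing that counts transcripts at their 3' ends. All 3 groups carried the wound, so none is uninjured muscle. There is 1 library per treatment, and the labels give neither strain, sex, age, the number of mice nor whether muscles were pooled. Differences between libraries therefore have no replicate check, and no test was made: intervals are 95% and cover counting error only, and cells of a library are not replicates.

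Monocytes of the Ly6c-high kind leave the bone marrow by way of the receptor Ccr2, enter injured muscle and mature there into macrophages, losing Ly6c as they do so. Type I interferons signal through the receptor chains Ifnar1 and Ifnar2 to a factor complex that holds Irf9 and binds the interferon-stimulated response element upstream of antiviral genes. Interferon-γ signals through Ifngr1 and Ifngr2, and raises guanylate-binding proteins, Irf1 and the antigen-presentation machinery. Many genes answer both kinds of interferon.

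The F1 cells held 2879719 UMIs (unique transcript counts) with PCL, 351199 with saline and 276127 with UBM. Their median depth was 6078, 4983.5 and 5777 UMIs per cell, against 5408.5 over all other cells. A gene's level is given as UMIs per 1000000 (CPM) of the summed UMIs of the cells named. 3 UMIs, the limit that a count of 0 allows, were worth 1.04 CPM in F1 with PCL, 8.54 with saline and 10.9 with UBM, so the saline and UBM values of low genes are coarse. The median mitochondrial share in F1 was 3.08%, 2.62% and 2.44%, and none of the 12 cells whose barcode occurs in more than 1 library was in F1.

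The 8 genes that mark F1 were all at their highest there among the 9 clusters when libraries were pooled, which describes a cluster made from these genes and tests nothing. Against all other cells pooled, 4.98% of 2789 genes were higher in F1 and 3.01% lower by the rule of size given below. The first 4 markers are in the monocyte list. Ms4a4c, a membrane protein of the Ms4a family that is also in the type I interferon list used below, stood at 704 CPM in F1 and 255 in F2, the next cluster. Plac8, a small cysteine-rich protein of monocytes, stood at 1072 CPM against 455 in F2, and Ly6c2, the surface antigen of Ly6c-high monocytes, at 113 against 44.8 in F2. Ccr2 was the least distinct, at 618 CPM against 360 in R1. The other 4 are interferon-induced. Isg15, a ubiquitin-like protein, stood at 533 CPM against 286 in F2, and the antiviral enzyme Rsad2 at 328 against 88.5 in RP3. Ifit3, a partner of RNA-binding Ifit1, stood at 153 CPM against 36.8 in RP3, and Cxcl10, a chemokine that draws T and NK cells, at 198 against 42.4 in R3. The other 4 were between 1.86 and 4.67 times the next cluster, and the first 4 between 1.71 and 2.76 times.

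Within each library the same 8 genes were higher in F1 than in that library's other cells, with 1 marker weak in saline. Ms4a4c was at 785 CPM in F1 with PCL, 413 with saline and 228 with UBM, against 98.3, 58.6 and 9.78 in the other cells. Ly6c2 was at 128, 51.3 and 25.4 CPM in F1, against 17.6, 5.86 and 3.56. Ccr2 was at 666, 550 and 199 CPM against 164, 339 and 80.0. Its ratio to the other cells was therefore 4.07 (3.80 to 4.37) with PCL and 1.62 (1.37 to 1.92) with saline, where it set F1 apart less. Rsad2 and Ifit3 had lower ratios to the other cells with PCL than with saline or UBM. Rsad2 was at 308, 302 and 569 CPM in F1 against 39.5, 19.5 and 16.9, and Ifit3 at 141, 239 and 174 against 14.8, 13.7 and 2.93. Their ratios were 7.80 and 9.52 with PCL, 15.5 and 17.5 with saline, and 33.6 and 59.2 with UBM. The label of monocyte-like interferon macrophages rests on these markers, so their match to it tests nothing. Ccr2 in saline did not meet the rule of size given below, and Ly6c2 with UBM was under its minimum level. Ly6c2 has a near-identical neighbour, Ly6c1, and Ifit3 has Ifit3b, so the split of reads within these pairs is uncertain.

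**Figure D1:**
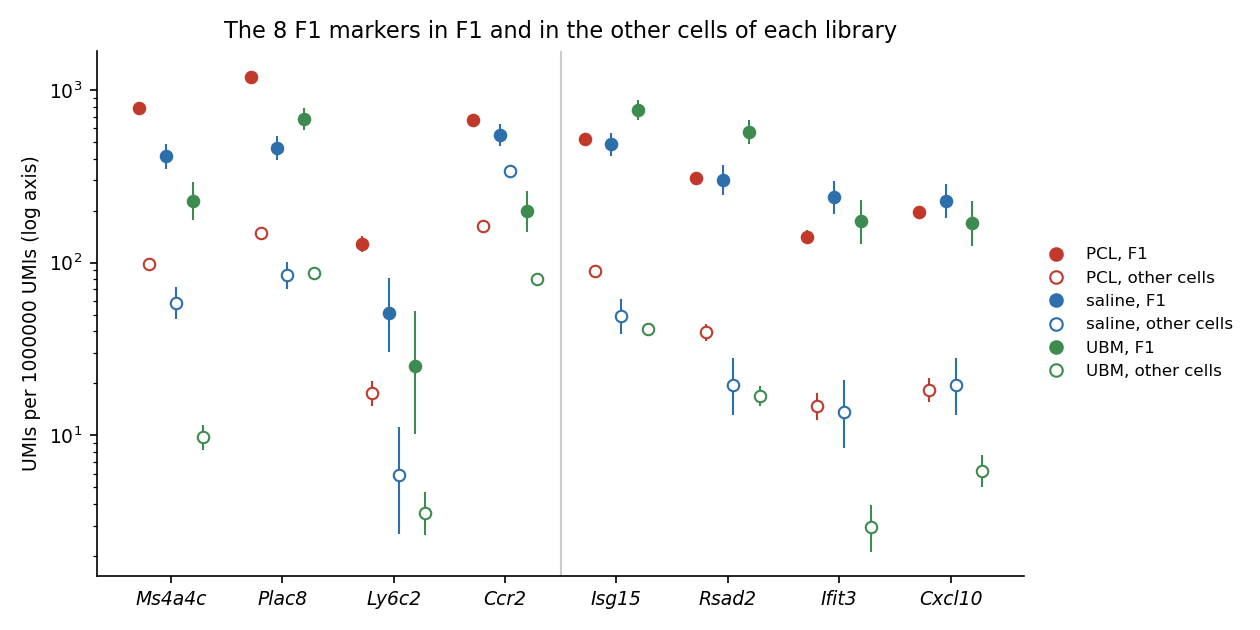
Levels of the 8 F1 markers (UMIs per 1000000, log axis) in F1 cells (filled) and in the other cells (open) of the PCL, saline and UBM libraries, monocyte genes left of the line and interferon-induced genes right of it; bars are exact Poisson 95% intervals. Every filled point lies above the open point of its library, with the narrowest gap for Ccr2 in saline (550 against 339).

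The letters upstream of 4 interferon-induced markers are shown because each holds a repeat that the background above names. The search used the core repeat of the interferon-stimulated response element, GAAA followed after any 2 bases by GAAA again, on both strands (TTTC with the same spacing on the other), with overlapping matches counted, in RefSeq promoters of the mouse build GRCm38.p6 that run from 250 bases before to 50 bases after the start that the RefSeq table gives. It was found for Isg15, Rsad2, Ifit3 and Cxcl10, and not in the windows of Ms4a4c, Plac8, Ly6c2 or Ccr2. The windows of Ms4a4c and Ccr2 lie wholly or almost wholly inside the gene as GENCODE draws it, so they do not show the letters upstream of that gene start. Below are the 250 bases before the RefSeq start, 5' to 3' on the gene's strand, with the matches in capitals, for chr4:156200819-156201068 (Isg15, minus strand, 3 matches), chr12:26456453-26456702 (Rsad2, minus strand, 1 match), chr19:34583279-34583528 (Ifit3, plus strand, 2 matches) and chr5:92348890-92349139 (Cxcl10, minus strand, 1 match).
Isg15: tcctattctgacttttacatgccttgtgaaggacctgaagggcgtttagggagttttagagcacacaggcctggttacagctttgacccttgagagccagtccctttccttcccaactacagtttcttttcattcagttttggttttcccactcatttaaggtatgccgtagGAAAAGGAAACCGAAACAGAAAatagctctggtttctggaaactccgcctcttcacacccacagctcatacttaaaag
Rsad2: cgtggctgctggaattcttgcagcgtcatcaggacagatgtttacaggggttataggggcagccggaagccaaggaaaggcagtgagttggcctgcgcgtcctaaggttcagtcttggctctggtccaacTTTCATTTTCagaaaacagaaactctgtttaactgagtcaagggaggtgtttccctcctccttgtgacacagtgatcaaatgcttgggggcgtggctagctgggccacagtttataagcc
Ifit3: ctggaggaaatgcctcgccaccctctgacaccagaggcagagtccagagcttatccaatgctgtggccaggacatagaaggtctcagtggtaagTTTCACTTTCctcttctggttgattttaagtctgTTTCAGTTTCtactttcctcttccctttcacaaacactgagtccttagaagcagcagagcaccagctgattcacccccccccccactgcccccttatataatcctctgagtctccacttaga
Cxcl10: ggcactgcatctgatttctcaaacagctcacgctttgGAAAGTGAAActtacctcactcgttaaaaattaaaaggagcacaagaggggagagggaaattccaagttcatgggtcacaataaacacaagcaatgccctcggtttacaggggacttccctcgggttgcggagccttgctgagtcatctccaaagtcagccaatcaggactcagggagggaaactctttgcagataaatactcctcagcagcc

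Read 5' to 3', the first match began at position -78 from the gene's start in Isg15, at -120 in Rsad2, at -156 in Ifit3 and at -213 in Cxcl10. In Isg15 the 3 matches overlap in 1 run of capitals. Over all 27025 genes with a promoter of this length, 1079 (3.99%) held the motif, and among genes counted in these libraries 389 of 9828 (3.96%). Of the type I interferon-induced genes listed for this work, 22 of 45 with a promoter held it (48.9%), and of the type II list 9 of 20 (45.0%). The monocyte list had 1 of 13, and the MHC class II list 0 of 8. A match is a description of these letters, not a bound site, and a window without one says nothing of the factor.

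Interferon-induced genes as a group were higher in F1 in every library. The rule of size used throughout is a difference of at least 2-fold after adding 10 CPM to both levels, among genes of at least 50 CPM in the higher group. With PCL, 39 of the 46 type I genes that reached this level were higher in F1 than in the other cells and 0 were lower, where 4.03% of all 2826 genes were higher and 3.22% lower. With saline 49 of 51 were higher (background 4.05% higher, 2.93% lower), and with UBM 41 of 44 (4.69% and 1.97%). The same background shares apply to every list set against the other cells of its library below. The list's median log2 ratio was 1.39, 1.89 and 1.96, against 0.03, -0.02 and 0.01 over all genes. Genes enter such a list mostly through their F1 level, so these counts describe the cluster and support nothing further. Of the 1298 other cells with PCL, 1036 were FP1. RP3 of that library was not below F1 for every interferon-induced gene. Trim30a was at 293 CPM in RP3 and 246 in F1, and Oas2 at 43.1 and 26.7. Isg15 was at 227 in RP3 and 517 in F1, and Usp18 at 24.1 and 59.4. Beyond the markers, the genes furthest above the other cells were Ifit1, at 224, 233 and 254 CPM in F1 against 34.5, 13.7 and 8.80, and Ifit2, at 79.2, 140 and 235 against 7.14, 8.46 and 3.42. Both encode RNA-binding antiviral proteins. Mnda, a nuclear DNA-binding protein of the Ifi200 family, was at 325, 376 and 304 CPM against 88.7, 62.5 and 39.3, and Slfn1, a Schlafen protein, at 135, 125 and 105 against 28.9, 16.9 and 9.71.

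The machinery of the response was partly higher too. Irf7, the factor that amplifies type I interferon output, was at 305 CPM with PCL, 461 with saline and 167 with UBM in F1, against 91.2, 97.6 and 46.9 in the other cells. Usp18, which removes Isg15 and damps the receptor, was at 59.4, 79.7 and 90.5 CPM against 12.7, 13 and 11. The receptor chains Ifnar1 and Ifnar2 differed little, at 107 against 90.6 and 142 against 106 with PCL. In the list of 27 signalling genes, 13 reached the minimum level and 3 were higher with PCL and with saline. Among type II genes, 6 of 10 were higher with PCL and 9 of 17 with saline, with medians of 1.09 and 1.16.

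The middle F1 cell held more type I transcripts than the middle cell of the rest of its library. When each cell was thinned to 2500 UMIs, an F1 cell held between 3 and 152 UMIs of type I genes with PCL (median 35, 429 cells). With saline the range was 1 to 73 (median 42.5, 48 cells), and with UBM it was 1 to 109 (median 22.5, 42 cells). The other cells of the same libraries had medians of 10, 12 and 8. Having any such UMI set no cell apart, since 0 of the 519 thinned F1 cells and 19 of 3460 other cells had none. Among the other clusters the median was highest in RP3, at 23, and in F2, at 19, and it was 9 in FP1 and 5 in R3. The middle F1 cell with PCL therefore held more than the middle cell of each other cluster. That with UBM, at 22.5, held slightly fewer than the middle RP3 cell, and the ranges overlapped throughout. Thinning left out 26 F1 cells with PCL, 16 with saline and 1 with UBM for having fewer UMIs.

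**Figure D2:**
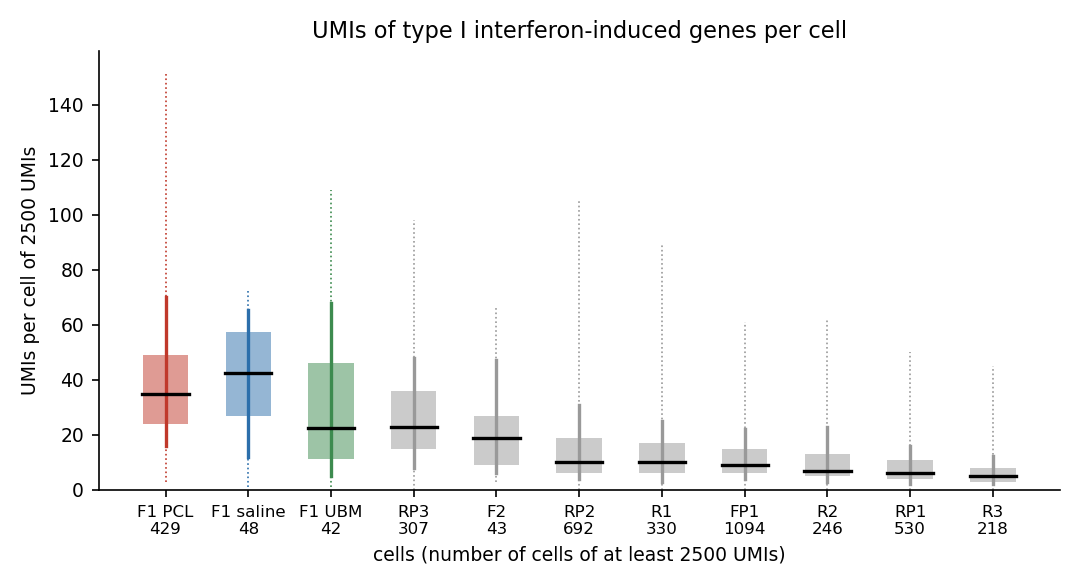
UMIs of type I interferon-induced genes per cell after thinning to 2500 UMIs, for F1 by library and for the other clusters over all libraries, with the number of cells below each name. Black bars are medians, boxes the middle 50%, thick lines the 10th to 90th percentile and dotted lines the full range; the F1 medians are 35 (PCL), 42.5 (saline) and 22.5 (UBM), and RP3, the highest other cluster, is at 23, above F1 with UBM.

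Beside these, monocyte genes set F1 apart by a small number of members. With PCL, 6 of 16 monocyte genes were higher than in the other cells and 2 were lower, with a list median of 0.71. After thinning an F1 cell held a median of 15 UMIs of the list with PCL, 5 with saline and 7 with UBM, against 11, 5 and 5 in the other cells. The 6 were Plac8, Ms4a4c, Ly6c2, Ccr2, Chil3 and Sirpb1c. Plac8 was at 1184 CPM with PCL, 461 with saline and 677 with UBM, against 148, 84.6 and 87.1 in the other cells. Chil3, a chitinase-like protein, was at 409 CPM against 127 with PCL, 34.2 against 27.3 with saline and 282 against 487 with UBM, so its excess was seen with PCL alone. With saline only Ms4a4c, Plac8 and Ly6c2 of 12 genes were higher. Fn1, fibronectin, was lower in F1 with PCL, at 651 CPM against 2151.

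F1 cells also carried the transcripts of macrophages. Adgre1, which encodes F4/80, was at 335 CPM with PCL, 481 with saline and 532 with UBM, against 250, 397 and 428 in the other cells. C1qa, a complement subunit made by tissue macrophages, was at 2060, 4314 and 3752 CPM against 1472, 3522 and 2685. Of 25 mature macrophage genes, 1 was higher with PCL (Fcgr1, the high-affinity IgG receptor, itself interferon-induced) and 4 were lower (Gpnmb, Ctsl, Trem2 and Cd63). Over all genes 4.03% were higher and 3.22% lower with PCL, so 1 higher gene of 25 is near that share. Fcgr1 was at 458, 319 and 424 CPM in F1 against 184, 101 and 104. Non-classical monocyte genes gave 1 higher and 1 lower of 7 with PCL and 0 higher and 1 lower of 7 with saline.

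The MHC class II genes H2-Ab1 and Cd74 were at their highest in F1 among the 9 clusters, followed by R1. H2-Ab1, 1 of the peptide-binding chains, stood at 6424 CPM over all F1 cells and 4938 in R1, and Cd74, the invariant chain that guides class II to the endosome, at 19465 against 14560. By library, H2-Ab1 was at 6396 CPM in F1 with PCL, 8505 with saline and 4060 with UBM, against 1144, 5201 and 1373 in the other cells. The F1 values spanned 4060 to 8505 CPM and those of the other cells 1144 to 5201, and the ratio was 5.59 (5.45 to 5.73) with PCL, 1.64 (1.57 to 1.71) with saline and 2.96 (2.78 to 3.14) with UBM. Of the class II list, 6 of 7 genes were higher with PCL, 1 of 8 with saline (Cd40, the costimulatory receptor) and 7 of 8 with UBM. Ciita, the master regulator of class II, was at 12.2, 31.3 and 10.9 CPM in F1, below the minimum level. Dendritic cells share class II, and of their markers Flt3 was at 0 in F1 with saline, Zbtb46 was at 0 in F1 in all 3 libraries and Clec9a was at 0 with PCL and UBM. Others were higher in F1, 2 of 7 with PCL (Plbd1 and Ifi205, the latter interferon-induced too), 2 of 9 with saline and 5 of 9 with UBM, and Itgax was lower in all 3 libraries. The summed level of the dendritic cell list was 1129 CPM in F1 with PCL, 1614 with saline and 1307 with UBM, against 715, 1227 and 845 in the other cells. Their part in the class II level was not tested.

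The chemokines higher in F1 included ligands of Ccr2 and, among others, Cxcl10 and Ccl4. Ccl12, a mouse ligand of Ccr2, was at 488 CPM with PCL, 1461 with saline and 2799 with UBM, against 94.6, 139 and 532 in the other cells. Ccl2, the main Ccr2 ligand, was at 1362, 1421 and 1293 CPM against 594, 606 and 619. Ccl7, another Ccr2 ligand, was at 2501, 1404 and 3071 CPM against 920, 815 and 1584. Ccl7 met the rule of size with PCL only. The cluster RP3 held more of each with PCL, with Ccl2 at 2161 CPM, Ccl7 at 3761 and Ccl12 at 594. The F1 ratios to the other cells for Ccl2 were 2.29, 2.35 and 2.09. Of the chemokine list, 5 of 16 genes were higher and 2 lower with PCL (Cxcl3 and Ccl24 lower), and 6 of 16 were higher with saline. Il1b, the inflammatory cytokine, was at 1142, 1204 and 344 CPM in F1 against 513, 682 and 99.2.

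The genes lowest in F1 included a matrix protease and lysosomal genes. Mmp12, macrophage elastase, was at 99.7 CPM in F1 with PCL, 2.85 with saline and 134 with UBM, against 912, 180 and 1159 in the other cells. Gpnmb, a glycoprotein of lipid-laden macrophages, was at 22.2, 54.1 and 79.7 CPM against 228, 412 and 386. Atp6v0d2, a subunit of the lysosomal proton pump, was at 4.86, 2.85 and 29.0 CPM against 42.8, 91.7 and 141. All of these were lower in each library. Spp1, osteopontin, was at 1665, 142 and 308 CPM in F1 against 7938, 1040 and 1785, and Cd9, a tetraspanin, at 172, 74.0 and 97.8 against 1111, 312 and 314. RP3 with PCL was lower than F1 in Mmp12 (68.9 CPM), Spp1 (1347) and Cd9 (89.6), and higher in Gpnmb (34.5) and Atp6v0d2 (6.89). Such low levels were thus not particular to F1. Of the fibrosis and matrix list, 0 were higher and 11 of 20 were lower with PCL, 5 of 14 with saline and 4 of 18 with UBM, with a PCL median of -1.04. Glycolysis and hypoxia genes gave 6 of 22 lower with PCL, 1 of 12 with saline and 0 of 22 with UBM. Per thinned cell over all libraries, the median of the fibrosis and matrix list was 22 UMIs in F1, 17 in R2 and 13 in RP3. That of the glycolysis and hypoxia list was 11 in F1, 8 in R3 and 6 in RP3. The clusters not named for a list were above F1 in it. Arg1, arginase, was at 261 CPM against 1401 with PCL, but at 2550 against 2981 with UBM. Ccl8, a monocyte chemokine, is among the 15 lowest when libraries are pooled, yet was at 455 against 901 CPM with PCL, 1167 against 1405 with saline and 11806 against 12240 with UBM. UBM cells, in which Ccl8 was high, were 7.65% of F1 and 52.1% of all cells.

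FP1, which held 59.1% of the PCL cells, was the cluster most like F1 by level, with a rank correlation of 0.88 over 3584 genes, and R1 and F2 followed at 0.85. These levels were pooled over libraries. PCL gave 455 of 562 F1 cells and 1036 of 1207 FP1 cells, and UBM gave 289 of 349 R1 cells. Likeness of the cells and a shared library therefore cannot be told apart in this ranking. Set against FP1 within the PCL library, 5.26% of 2851 genes were higher in F1 and 3.51% lower. Of the type I list 40 of 46 were higher, of the class II list 6 of 7, and of the monocyte list 7 of 16 with 2 lower. Of the fibrosis and matrix list 11 of 20 were lower, with a median of -1.14. Within saline, where 7.99% of 2940 genes were higher and 5.88% lower, 50 of 51 type I genes and 7 of 8 class II genes were higher in F1. The monocyte list split there, with 5 higher and 3 lower of 15. The clusters were made from these genes, so this too is a description.

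F1 was common with PCL and saline and rare with UBM. It held 455 of 1753 cells with PCL (25.96%, exact interval 23.9 to 28.1), 64 of 341 with saline (18.8%, 14.8 to 23.3) and 43 of 2280 with UBM (1.89%, 1.37 to 2.53). These shares are of sorted and captured cells, so fewer F1 cells and more of the other macrophages cannot be told apart. A new clustering of all genes gave 25.7%, 15.5% and 0.746%, and kept 488 of the 562 cells together. When the 103 marker, monocyte and interferon genes were left out, the shares became 24.1%, 4.99% and 0.307%. In that clustering 407 of the 455 PCL cells (89.5%) stayed in 1 F1 cluster, but only 7 of the 64 saline cells (10.9%) and 6 of the 43 UBM cells (14.0%). Of the saline cells 22 joined R1, 22 joined R3, 8 joined RP3 and 5 joined FP1. Of the UBM cells 12 joined R1 and 9 joined RP2. With PCL most F1 cells thus grouped together without those genes, and with saline and UBM most did not. A different make-up of cells and a difference between libraries cannot be told apart here, with 1 library per treatment. Every comparison between treatments below is between these sets.

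**Figure D3:**
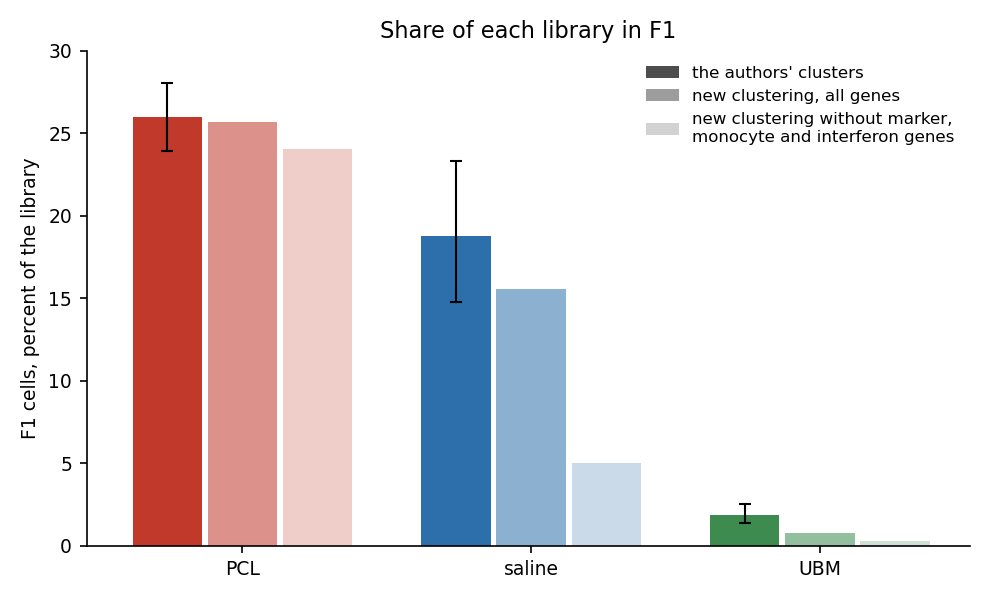
Share of each library's cells in F1 (percent, axis from 0) by the authors' clusters with exact 95% intervals, by a new clustering of all genes, and by a new clustering without marker, monocyte and interferon genes. With PCL the 3 values lie between 24.1% and 25.96%, whereas with saline they run from 18.8% to 4.99% and with UBM from 1.89% to 0.307%.

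The markers were spread over F1 cells to very different degrees. Ms4a4c was seen in 88.6% of F1 cells with PCL, 64.1% with saline and 37.2% with UBM, and after thinning in 75.8%, 47.9% and 21.4%. It was seen in 12.8% of all other cells, and in 7.34% after thinning, but those cells are mostly from UBM. Within a library, FP1 had it in 26.4% of cells with PCL and 19.4% with saline, and after thinning in 15.2% and 13.6%. These are levels to read the F1 shares against. Free RNA can also give UMIs, and its part in the FP1 and F1 shares was not tested. Ccr2 was seen in 88.4%, 75% and 41.9% of F1 cells, and after thinning in 72.3%, 70.8% and 31.0%, against 27.0% of FP1 cells with PCL and 23.7% with saline, thinned. Cxcl10 was seen in 17.4%, 12.5% and 14.0%, and after thinning in 11.2%, 14.6% and 7.14%, against 2.11% of FP1 cells with PCL and 1.69% with saline. The tenth of PCL F1 cells with the most UMIs of the gene (46 cells) held 94.2% of the Cxcl10, 82.4% of the Rsad2 and 80.2% of the Ifit3 UMIs, but 36.1% of the Ms4a4c and 28.6% of the Ccr2 UMIs. High Cxcl10, Rsad2 and Ifit3 thus lay in a minority of cells inside a cluster that carried Ms4a4c and Ccr2 broadly.

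Monocyte and interferon markers were counted per cell. Of 429 thinned PCL F1 cells, 220 had a UMI of at least 1 monocyte marker and of at least 1 interferon marker. A further 193 had monocyte markers alone, 9 interferon markers alone and 7 neither. With saline the numbers were 21, 18, 8 and 1 of 48, and with UBM 13, 12, 9 and 8 of 42. In FP1 with PCL they were 99, 375, 62 and 410 of 946. Nearly all PCL F1 cells had a monocyte marker, Ms4a4c counted among them, so the number with both follows from the number with an interferon marker. Rsad2 was seen in 27 of 48 Cxcl10 cells (56.2%) and 18 of 83 Ly6c2 cells (21.7%) with PCL, where 20.7% of all PCL F1 cells had it. With saline it was seen in 2 of 7 Cxcl10 cells and 2 of 4 Ly6c2 cells.

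To see what moved with the interferon genes, F1 cells were ordered by the UMIs of 29 type I genes and cut into 4 groups of like size, and the remaining 28 were read as a separate measure. With PCL the summed level of those 28 was 5444, 7271, 8594 and 13219 CPM from the lowest to the highest group, and with saline 3767, 7733, 10700 and 12633. The 2 sets of type I genes moved together, with a rank correlation over cells of 0.66 with PCL (429 cells) and 0.81 with saline (48 cells). Depth did not follow them, at medians of 6602.5, 5992, 6321 and 5993 UMIs with PCL. Rsad2, 1 of those 28, was at 19 CPM in the lowest and 1047 in the highest PCL group, and Cxcl10, in neither set, at 26 and 505. Type II genes ran from 1233 to 3297 CPM with PCL.

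Monocyte genes followed the interferon genes weakly. The monocyte list without its type I members was at 5044, 5708, 5892 and 6247 CPM across the PCL groups, and at 2633, 2533, 2500 and 2867 with saline, with rank correlations of 0.12 and 0.11. Members differed. Plac8 went from 763 to 1865 CPM and Ly6c2 from 85 to 217 with PCL, whereas Ccr2 was at 719 and 594. Class II genes ran the other way at the top, at 36770, 43619, 38135 and 29791 CPM with PCL and 57833, 59367, 61300 and 18167 with saline. Each saline group is 12 cells, so its values are coarse. The group with the most interferon transcripts had the least class II in both libraries. Other lists differed there too. With saline the tissue-resident list was at 12000 CPM in that group and 2767 in the lowest, and the cell cycle list at 4000, against 1533 to 1967 in the other groups. With PCL the neutrophil list was at 789 CPM there, against 333 to 415. Their part in the class II level was not tested.

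**Figure D4:**
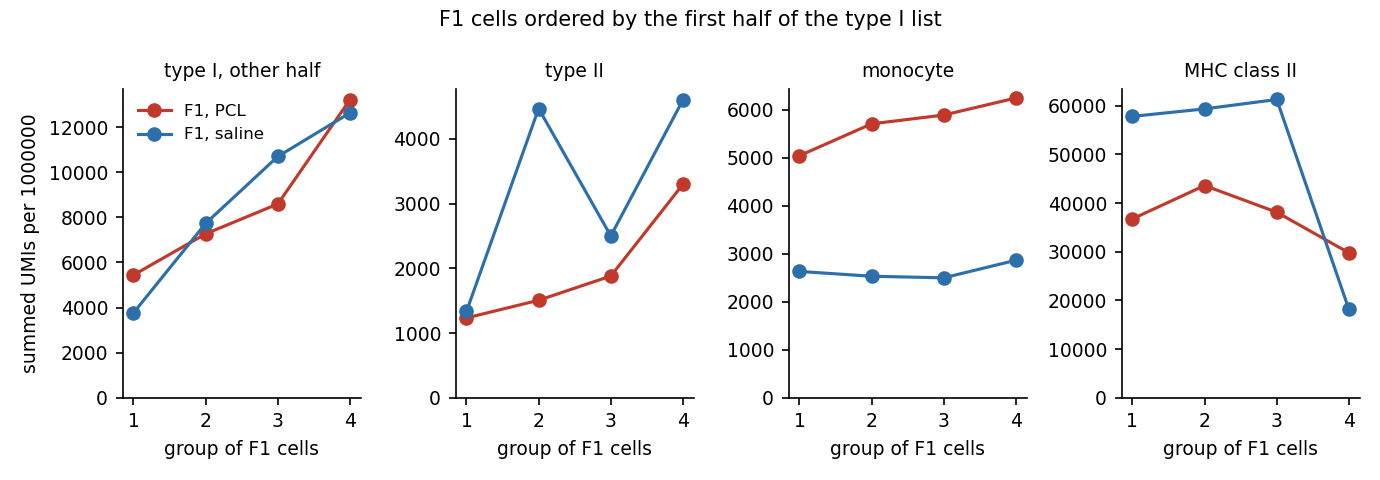
Summed levels (UMIs per 1000000, each axis from 0) of the other 28 type I genes and of the type II, monocyte and MHC class II lists in 4 groups of F1 cells ordered from low (1) to high (4) by 29 type I genes, for PCL (107 or 108 cells each) and saline (12 each). The first panel climbs in both libraries (5444 to 13219 with PCL), the monocyte lines are nearly level, and class II is lowest in group 4.

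Between PCL and saline, Isg15 and Rsad2 were at close levels in F1 cells, and other gene groups lay further apart. With PCL F1 cells held more transcripts of arginase, osteopontin, calprotectin and glycolysis, and with saline more of Retnla, complement C1q and type II interferon genes. Isg15 was at 517 CPM with PCL, 484 with saline and 768 with UBM, a PCL-to-saline ratio of 1.07 (0.910 to 1.26). Rsad2 was at 308, 302 and 569, a ratio of 1.02 (0.834 to 1.26). The other 2 interferon markers stood lower with PCL than with saline without meeting the rule of size. Ifit3 was at 141, 239 and 174 CPM, and Cxcl10 at 197, 228 and 170. Over the type I list 0 of 52 genes were higher with PCL and 2 were lower (Gbp3 and Herc6), where 4.82% of 2886 genes were higher and 3.15% lower. The list median was -0.37, against 0.12 over all genes. The same shares over all genes apply to every list set between PCL and saline within F1 below. Differences under 2-fold are not counted by this rule, and with 64 saline cells and 1 library each they have no replicate check.

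Several type II genes stood lower with PCL. In the list, 0 of 17 were higher and 6 were lower, with a median of -0.78. Per thinned cell the medians were close, at 4 UMIs of the list with PCL and 5 with saline, while the means were 4.94 and 8.06 and the highest cells held 38 and 60. Gbp2, a guanylate-binding protein, was at 35.8 CPM with PCL, 168 with saline and 57.9 with UBM, 4.70-fold (3.35 to 6.53) higher with saline than with PCL. Irf1, an interferon-induced transcription factor, was at 30.6, 128 and 25.4 CPM, 4.19-fold (2.86 to 6.07) higher with saline. With saline Gbp2 was seen in 24 of 64 cells and Irf1 in 20, and the top cell held 16.9% and 22.2% of their UMIs. Cxcl9, a T cell chemokine, was at 1.74 and 62.6 CPM, but came from only 3 saline cells. In FP1 of the same libraries Gbp2 was at 7.21 CPM with PCL and 34.8 with saline, and Irf1 at 12.3 and 16.4. In RP3 Gbp2 was at 34.5 and 55.8 CPM, and Irf1 at 46.5 and 290, so higher Irf1 with saline was not particular to F1. The class II gene H2-Ab1 was at 6396 and 8505 CPM in F1, 1018 and 2938 in FP1, and 863 and 2297 in RP3. Of class II genes, 2 of 8 were lower with PCL in F1 (Cd40 and H2-DMb1), 6 of 7 in FP1 and 6 of 7 in RP3. Of all genes 4.04% were higher and 2.28% lower in FP1, and 5.36% higher and 4.14% lower in RP3. These contrasts share their 2 libraries, and the difference between clusters was not tested.

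The largest single difference in F1 was Retnla, which encodes a secreted resistin-like protein. It was at 4.51 CPM with PCL, 2805 with saline and 10176 with UBM, 621-fold (362 to 1171) higher with saline than with PCL. It was seen in 13 of 455, 25 of 64 and 36 of 43 cells, and the top saline cell held 22% of the saline UMIs. In the cluster RP3 it was at 190 CPM with PCL and 5246 with saline. Lectin and complement genes of macrophages were also lower with PCL. Mgl2, a galactose-binding lectin, was at 35.8 CPM with PCL, 271 with saline and 655 with UBM, and Fcrls, an Fc receptor-like protein, at 56.3, 302 and 228. C1qc was at 1500, 3935 and 2763 CPM, and Clec10a, a lectin of macrophages and dendritic cells, at 83.0, 271 and 188. In the tissue-resident list 6 of 13 genes were lower with PCL and 4 higher (Ednrb, Ccl24, Cd36 and Pf4), with a median of -0.90. With no minimum level that median became 0.10.

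With PCL, F1 cells held more Arg1, Spp1 and Hmox1 than with saline, and in the PCL library all of these stood higher still in FP1. Arg1 was at 261 CPM with PCL, 5.69 with saline and 2550 with UBM, 45.8-fold (12.6 to 379) higher with PCL than with saline, in 195 of 455 PCL cells and 1 of 64 saline cells. In FP1 it was at 1512 and 106. Spp1 was at 1665, 142 and 308 CPM in F1, 11.7-fold (8.86 to 15.8) higher with PCL, and at 8918 and 2154 in FP1. Hmox1, which breaks down haem, was at 884, 162 and 290 CPM, 5.45-fold (4.19 to 7.22) higher, and at 1401 and 111 in FP1. RP3 also held more of each with PCL than with saline. Arg1 was at 72.4 and 3.72 CPM there, Spp1 at 1347 and 33.5, and Hmox1 at 1470 and 674. The higher levels with PCL were thus not particular to F1 and FP1. Of the glycolysis and hypoxia list 10 of 19 were higher and 0 lower, with a median of 1.01. Pgk1, a glycolytic kinase, was at 74.0 and 8.54 CPM, Eno1, enolase, at 705 and 302, and Slc16a3, the lactate exporter, at 168 and 37.0. Of the fibrosis and matrix list 10 of 18 were higher, with a median of 1.15, among them Mmp19, a matrix metalloproteinase, at 187 and 28.5 CPM, and Thbs1, thrombospondin, at 971 and 262.

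Monocyte genes were higher with PCL in 8 of 15 cases and lower in 0, with a median of 1.18. Plac8 was at 1184 and 461 CPM, 2.57-fold (2.19 to 3.03), and Ly6c2 at 128 and 51.3, 2.51-fold (1.56 to 4.28). Chil3 was at 409 CPM with PCL, 34.2 with saline and 282 with UBM. Vcan, a matrix proteoglycan of monocytes, was at 158, 8.54 and 14.5 CPM. Hp, haptoglobin, was at 113, 11.4 and 57.9 CPM. In FP1 Plac8 was at 106 CPM with PCL and 16.4 with saline, Vcan at 105 and 8.19, and Hp at 92.8 and 125. Ccr2 did not follow them, at 666 and 550 CPM (1.21-fold, 1.04 to 1.41).

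Chemokines differed in both directions, with 6 of 18 higher with PCL and 6 lower. The higher were Cxcl3, Ppbp, Ccl24, Pf4, Ccl9 and Ccl6, with Ppbp, a platelet and myeloid chemokine, at 227 and 31.3 CPM, and Pf4, a chemokine of platelets and macrophages, at 3771 and 1259. The lower were Cxcl9, Ccl12, Ccl8, Ccl4, Ccl3 and Ccl5. Ccl12 was at 488 and 1461 CPM, with 29.8% of its saline UMIs in 1 cell, and Ccl4, an inflammatory CC chemokine, at 705 and 1680, with 39.5% in 1 cell. Without the top cell of each library these were 465 and 1025, and 647 and 1017. Ccl8 was at 455 and 1167 CPM. Ccl2, at 1362 and 1421, did not meet the rule of size.

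Some markers of other cells and of handling also differed between PCL and saline in F1. S100a8 and S100a9, the calprotectin subunits abundant in neutrophils and monocytes, were at 159 and 103 CPM in F1 with PCL and at 0 with saline, at least 18.7-fold and at least 12.0-fold higher. S100a8 was seen in 230 of 455 PCL cells, while 0 of 64 saline cells allows a share of cells with a UMI of up to 4.69% (3 cells). It was also in 649 of 1036 FP1 cells with PCL, and at 28965 CPM in F2. In RP3 S100a8 was at 293 CPM with PCL and 7.45 with saline. The summed neutrophil list was at 434 CPM in F1 with PCL (13 of 15 genes with a UMI), 128 with saline and 141 with UBM, against 2392, 431 and 191 in the other cells, and the defining Ly6g was at 0 in all 3. Hbb-bs, a haemoglobin chain of red cells, was at 64.2 CPM in F1 with PCL and 0 with saline and UBM. A UMI of the erythroid list was seen in 208 of 455 F1 cells and 560 of 1298 other cells with PCL. The part of such RNA in the PCL differences was not tested.

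Handling-stress genes were lower with PCL in 6 of 24 cases and higher in 1 (Ier3), with a median of -0.54. Jun, an immediate-early factor, was at 195 CPM with PCL, 854 with saline and 279 with UBM, and Egr1 at 131, 390 and 322. Jun was at 460 and 2129 CPM in RP3. Cell cycle genes were lower with PCL in 6 of 12 cases, but Ube2c, at 6.25 and 91.1 CPM, was seen in 5 cells of each library. Without cells of over 2 times the median UMIs that list's median went from -1.20 to 0.076. Muscle-fibre genes summed to 25 CPM in F1 with PCL and 114 with saline, against 976 in the other saline cells, with Myh4 and Myh1 at 0 in F1 in both. T and NK cell markers summed to 57.6, 99.7 and 192 CPM in F1, with Cd3d at 0 in all 3 libraries, and B cell, endothelial, and eosinophil, basophil and mast cell markers were each at or below 51.4 CPM. The part of each in the treatment differences was not tested.

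**Figure D5:**
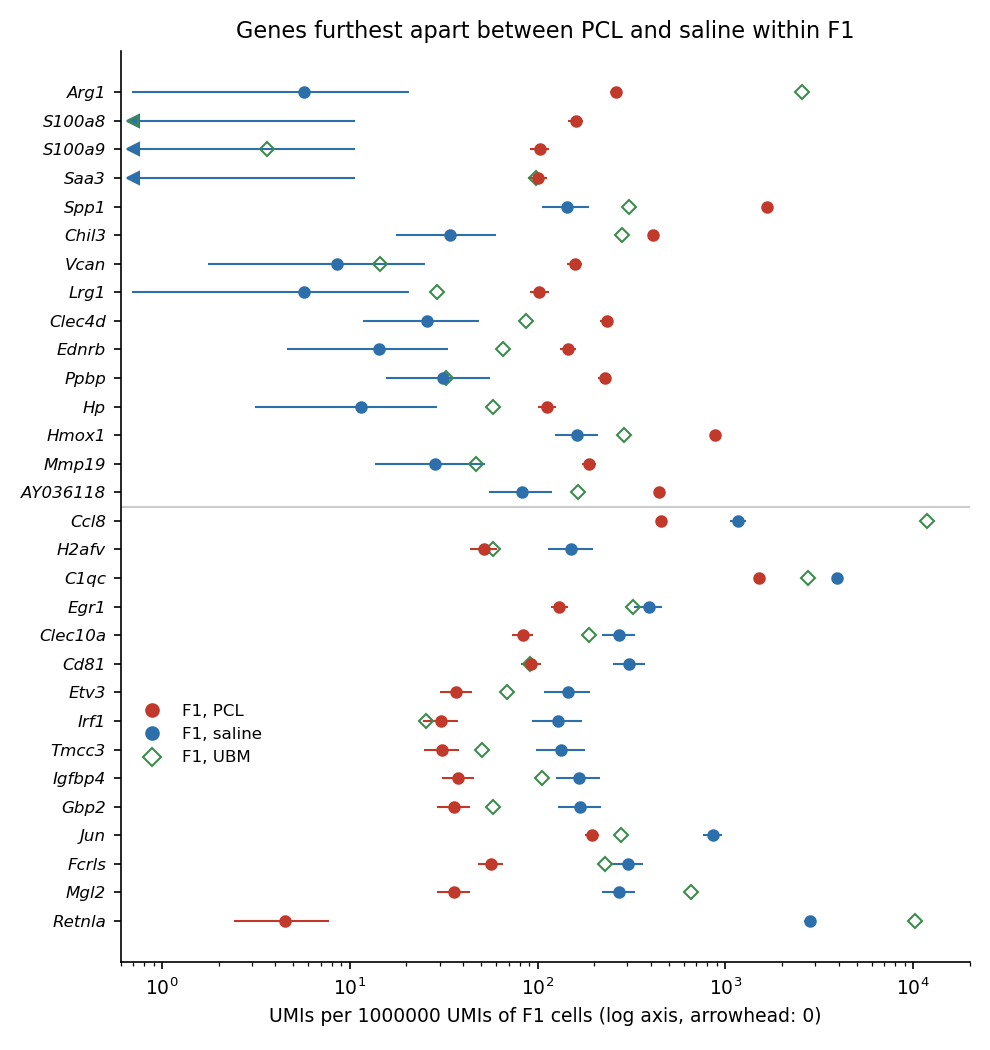
Levels (UMIs per 1000000 UMIs of F1 cells, log axis) of the 15 genes furthest higher (top) and the 15 furthest lower (bottom) with PCL against saline within F1, with UBM as open diamonds; bars are exact Poisson 95% intervals and an arrowhead marks a level of 0. Retnla is the widest gap (4.51 against 2805), and for Arg1 and Retnla the UBM level lies above both others.

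Over all genes, 139 were higher and 91 lower with PCL in F1. Without the cell with the most UMIs of each gene in each library these became 211 and 50, and with no minimum level 322 and 194. The number of genes and its split thus move with the setting. For each gene the top-cell setting takes out 1 of 64 saline cells and 1 of 455 PCL cells without changing the UMI totals. It thus weighs more on saline, and the median log2 ratio over all genes went from 0.12 to 0.27. For the 15 highest and 15 lowest named here, genes with over 25% of a library's UMIs in 1 cell had been left out.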

How the data were processed

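Macrophages sorted from mouse quadriceps were captured on the 10x 3' v2 platform, 1 library per treatment, per the labels. The authors deposited a table of UMI counts (whole-number counts per gene and cell, 13242 genes by 4374 cells) and a table of each cell's treatment and cluster. The submitters' processing notes name Cell Ranger and Seurat version 2, and list hg38, although 12831 symbols (96.9%) match the mouse GRCm38 annotation. Treatment names were matched to the labels by meaning (ECM, PBS and Synthetic stand for UBM, saline and PCL). How doublets were treated is not given in the sources used here, and none were removed.

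For each gene, the UMIs of a library's cells in a cluster were added up and scaled to CPM, with exact Poisson intervals for levels, exact conditional binomial intervals for ratios and exact Clopper-Pearson intervals for shares, all at 95%. A gene was counted as higher or lower at 2-fold after adding 10 CPM, with at least 50 CPM in the higher group. Named genes are the 15 highest and 15 lowest in F1 with the same direction in PCL and saline, the 15 highest and 15 lowest between PCL and saline with at least 100 CPM and at most 25% of UMIs in 1 cell, and members of 31 gene lists; other genes named were chosen after their values were seen. The members of F1 and the lists were chosen with earlier results of these data known. Cells were thinned to 2500 UMIs for shares and per-cell values. Reclustering used 2000 variable genes, 30 components, 20 neighbours and Leiden resolution 0.8, run with leidenalg where scanpy had been planned. Alternatives changed scaling, pseudocount, minimum level, cell filters and the cells compared. The calls were also run on simulated Poisson counts without variation between cells or libraries. That run cannot check calls that rest on few cells or on a difference between libraries. Some genes of the lists are not reported here. Python 3.11.15 with numpy 2.4.6, scipy 1.17.1, pandas 2.3.3, scikit-learn 1.9.0, igraph 0.11.9, leidenalg 0.10.2 and matplotlib 3.10.9 was used, and R 4.3.3 with edgeR 4.0.16 for the trimmed mean of M values only.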

Additional observations from a re-analysis of the deposited data

How the results depend on the processing

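No paired analysis was possible because each treatment has 1 library. No library can be left out of a group, and without UBM cells, an alternative chosen after seeing the data, F1 differed from the other cells in 107 genes higher and 77 lower, where 139 and 84 were given by all libraries.

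Among alternative values for the shares of cells and the counts of genes, 53 stayed within the limit set for them and 8 moved. With no minimum level, 137 genes were lower in F1 than in the other cells, and between PCL and saline 322 were higher and 194 lower. Without each gene's top cell, which weighs more on the 64 saline than on the 455 PCL cells, the PCL to saline counts were 211 higher and 50 lower. By a new clustering F1 held 0.746% of UBM cells, and without marker, monocyte and interferon genes 4.99% of saline and 0.307% of UBM cells. Beyond the unequal weight of the top-cell setting, no cause was tested for any of these. Of the other values, 826 stayed, 225 moved and 3 were counted as changed in sign. Ratios and medians that were small at the outset were not eligible for that last count. A change of sign among them was filed as stayed or moved. The cell cycle median of F1 against other cells was 0.22 in saline alone. Between PCL and saline, the tissue-resident median was 0.097 with no minimum and the cell cycle median 0.076 without cells of over 2 times the median UMIs. Scaling by the trimmed mean of M values, the median of ratios or a total without ribosomal protein genes gave none of these 3 sign changes. The saline F1 cells limit the precision: a count of 0 there allows 8.54 CPM.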
